A study of Homo sapiens with 4 samples.

Results

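The response to confluence was followed in BJ-TE cells carrying the p73 shRNA, as the change from 40% to 100% confluence. Members were chosen by sample title: 2 of the 4 samples of the series carried this hairpin, 1 collected at 40% and 1 at 100% confluence, each measured on 1 Affymetrix expression array. All 22215 probe sets other than the array's controls were used. BJ-TE is an established line derived from human BJ foreskin fibroblasts, and the labels add no further genotype for it. The p73 shRNA is a short hairpin RNA against the transcription factor p73, and the other 2 arrays hold cells with a hairpin labelled ns at the same degrees of confluence. All groups are therefore hairpin-treated BJ-TE cells, and no group without a hairpin was analysed here. The labels name 1 line and do not describe a second hairpin against p73, the time in culture, or how many cultures were pooled. With 1 array in each group, no ratio had a replicate check and no test was made, so how few arrays there are limits the precision throughout. "Higher" and "lower" below mean the value on the array at 100% confluence set against the array at 40%.

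Fibroblasts divide while they have free space and slow down when they touch their neighbours, a behaviour called contact inhibition that is commonly lost in transformed cells. Dense cultures also have less growth factor, nutrient and oxygen for each cell, so genes of growth, matrix, metabolism and oxygen sensing are known to vary with density. p73 belongs to the p53 family of transcription factors, which act on genes of the cell cycle, cell death and cell adhesion.

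Values are linear array intensities, and the ratios given are differences of log2(intensity + 11.5), so that 1 is a doubling. Each gene was represented by its brightest probe set, and 6759 of 11963 genes had a mean over the 4 arrays at or above the brightness filter, an intensity of about 111. In bulk RNA, fewer cells making a transcript and less of it in each cell cannot be told apart. The median intensity was 104 at 40% and 118 at 100% confluence with p73 shRNA, and 106 and 121 with ns shRNA. The 99th percentile was 12611 on the p73 shRNA array at 40% and 9988 to 11174 on the other 3 arrays. The 3' to 5' intensity ratio of beta-actin, a measure of RNA integrity, was 1.09 at 40% and 1.38 at 100% with p73 shRNA and 1.24 and 1.47 with ns shRNA. The median intensity of the ribosomal RNA controls was 279 and 283 with p73 shRNA, and 699 and 348 with ns shRNA. The part of either measure in the ratios was not tested. All 16 fibroblast markers lay above the filter, against 3 of 17 epithelial, 2 of 10 endothelial, 1 of 7 blood, 6 of 10 smooth muscle and 1 of 6 melanocyte markers. TP73 had 1 probe set, at an intensity of 2.09 and 2.04 with p73 shRNA and 1.68 and 1.65 with ns shRNA, which is at the floor of the arrays and gives no check of the hairpin.

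Stretches of the promoters of 4 genes, taken from the RefSeq table of promoters on GRCh38.p14, show the short motifs counted further on. They were chosen after the matches were seen, as clear examples from the hypoxia-inducible and interferon lists. Capitals in BNIP3 and DDIT4 mark ACGTG or GCGTG, the cores of the hypoxia response element. Capitals in IFIH1 and IFI6 mark GAAANNGAA, the core of the interferon-stimulated response element. Matches on either strand are shown, so some appear as the reverse complement, and matches that overlap run together. Every stretch reads 5′ to 3′ on the strand of its gene and ends before the start of transcription.
BNIP3, chr10:131982008-131982081, minus strand: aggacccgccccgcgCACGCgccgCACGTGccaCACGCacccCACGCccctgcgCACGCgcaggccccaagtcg
DDIT4, chr10:72273690-72273890, plus strand: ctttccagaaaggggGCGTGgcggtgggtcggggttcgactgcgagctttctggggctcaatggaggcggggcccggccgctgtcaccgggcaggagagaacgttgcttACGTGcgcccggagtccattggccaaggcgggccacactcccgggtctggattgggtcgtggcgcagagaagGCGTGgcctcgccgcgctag
IFIH1, chr2:162318685-162318863, minus strand: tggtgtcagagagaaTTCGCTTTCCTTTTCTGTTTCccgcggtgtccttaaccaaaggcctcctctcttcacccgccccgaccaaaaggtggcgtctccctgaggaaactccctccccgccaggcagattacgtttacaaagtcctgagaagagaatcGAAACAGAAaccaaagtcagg
IFI6, chr1:27672262-27672363, minus strand: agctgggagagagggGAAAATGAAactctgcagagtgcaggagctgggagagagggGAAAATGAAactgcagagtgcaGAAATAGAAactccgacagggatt

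Among the genes that were higher in confluent cells with p73 shRNA were VEGFA, CCL2, LUM and IFIH1, and among those that were lower were ID1, ID3, CCN2 and DKK1. Of the 6759 genes, 429 (6.35%) were at least 2-fold higher and 177 (2.62%) at least 2-fold lower at 100% confluence. At least 4-fold higher were 47 genes and lower 16, and 4892 genes (72.4%) lay within 1.5-fold. The median ratio was 0.02, with the 5th percentile at -0.82 and the 95th at 1.09, and 3470 genes had a positive ratio. Of the 429 higher genes, 312 were brighter than the filter's intensity on both arrays with p73 shRNA. The same held for 154 of the 177 lower genes. The remaining genes passed the filter through their brighter arrays only, so they had to be dim on another.

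COLEC12, a scavenger receptor with a collagen-like domain, had the highest ratio, 3.39, with intensities of 175 at 40% and 1946 at 100% confluence. VEGFA, the angiogenic growth factor, followed with 248 and 2696, a ratio of 3.38. Its other probe sets above the filter gave 2.42 and 1.35, so the size of its difference depended on the probe set while the direction did not. CCNG2, an atypical cyclin linked to cell cycle arrest, went from 204 to 1917, a ratio of 3.16. LAMA5, the alpha-5 chain of laminin, had 24.3 and 281. PNRC1, a nuclear receptor coregulator, had 149.9 and 1289.5. The complement protease-like gene C1RL had 47.6 and 438, and the interferon-induced RNA sensor IFIH1 had 46.8 and 429. LAMA5, C1RL and IFIH1 were each dimmer than the filter's intensity at 40% confluence, so their folds rest on a low starting value. The chemokine CCL2 was bright on both arrays, at 1777 and 11754, a ratio of 2.72. LUM, the small proteoglycan lumican that organises collagen fibrils, went from 457 to 3020.0, a ratio of 2.69.

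At the other end stood ID1, an inhibitor of basic helix-loop-helix transcription factors and a classical target of BMP signalling, with an intensity of 10523 at 40% and 933 at 100% confluence, a ratio of -3.48. Its relatives ID3 and ID2 had 5889 and 805, and 2096 and 479. CCN2, the connective tissue growth factor, had 4079 and 512, a ratio of -2.97. The vasoconstrictor peptide gene EDN1 had 239.7 and 22.7, PODXL, a sialomucin of the cell surface, 1107 and 152, and OXTR, the oxytocin receptor, 3922 and 586. HMOX1, the stress-induced haem oxygenase, had 1081 and 182. The Wnt inhibitor DKK1 had 9767 and 1842, a ratio of -2.40. ID1, ID2, ID3, CCN2, OXTR and DKK1 remained well above the filter on both arrays, whereas EDN1 was dim at 100%.

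**Figure D1:**
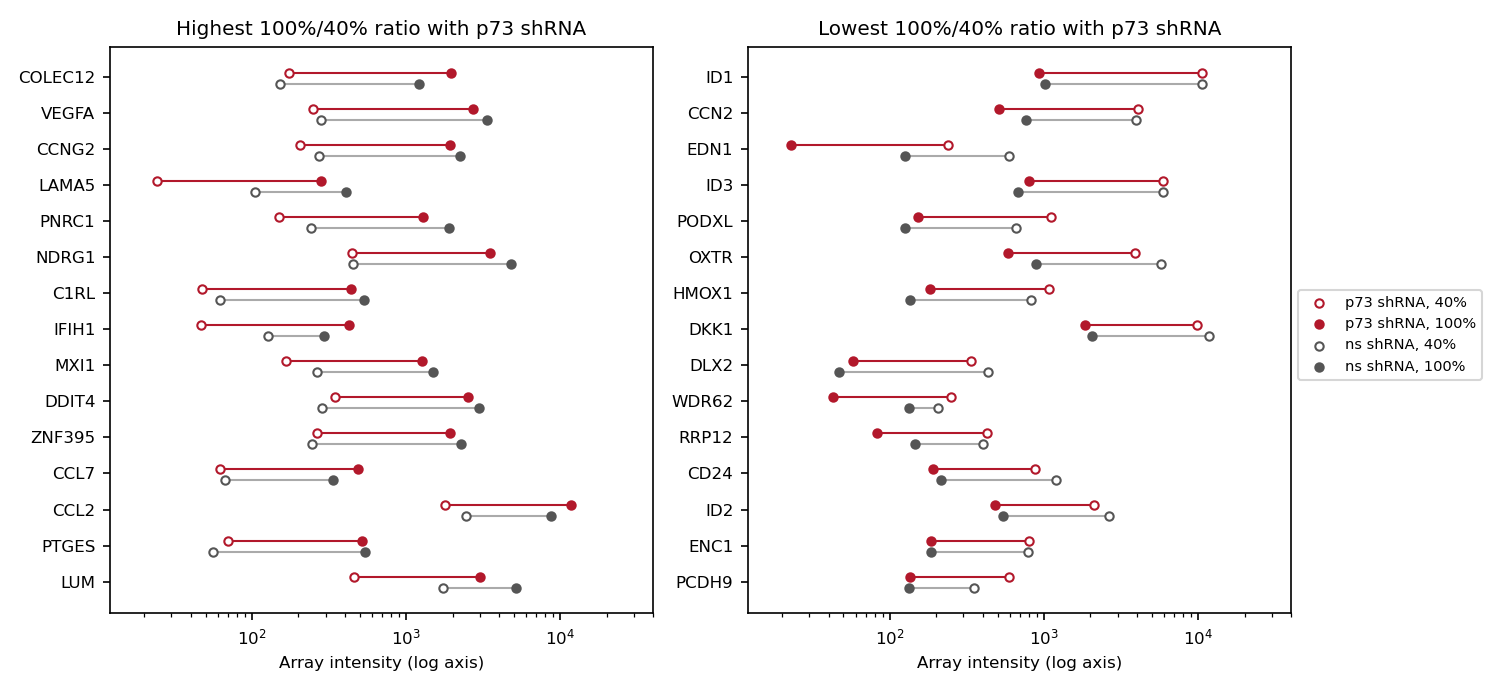
Array intensities, on a log axis, of the 15 genes with the highest (left) and the 15 with the lowest (right) log2 ratio of 100% over 40% confluence with p73 shRNA. Each point is 1 array, open at 40% and filled at 100%, red for p73 shRNA and grey for ns shRNA; COLEC12 went from 175 to 1946 and ID1 from 10523 to 933 with p73 shRNA, and the grey pairs run in the same direction for all 30 genes.

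The cells with ns shRNA were compared at the same degrees of confluence, on arrays that the p73 shRNA comparison does not use. With ns shRNA 382 genes (5.65%) were at least 2-fold higher and 178 (2.63%) at least 2-fold lower. Higher with both hairpins were 218 genes, which is 50.8% of those with p73 shRNA and 57.1% of those with ns shRNA. Lower with both were 89 genes, 50.3% and 50% of the respective lists. Many of the genes that passed the threshold with p73 shRNA alone had the same direction with ns shRNA. Of the 211 genes higher with p73 shRNA alone, 192 had a positive ratio with ns shRNA and 124 were at least 1.5-fold higher. Of the 88 lower with p73 shRNA alone, 83 had a negative ratio with ns shRNA and 47 were at least 1.5-fold lower. No gene was at least 2-fold in opposite directions. The 429 genes had a median ratio of 1.30 with p73 shRNA and 1.02 with ns shRNA, and the 177 had -1.26 and -1.01. Genes picked for a high value on 1 pair of arrays tend to average less on another pair, so this gap is no measure of a difference between the hairpins.

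**Figure D2:**
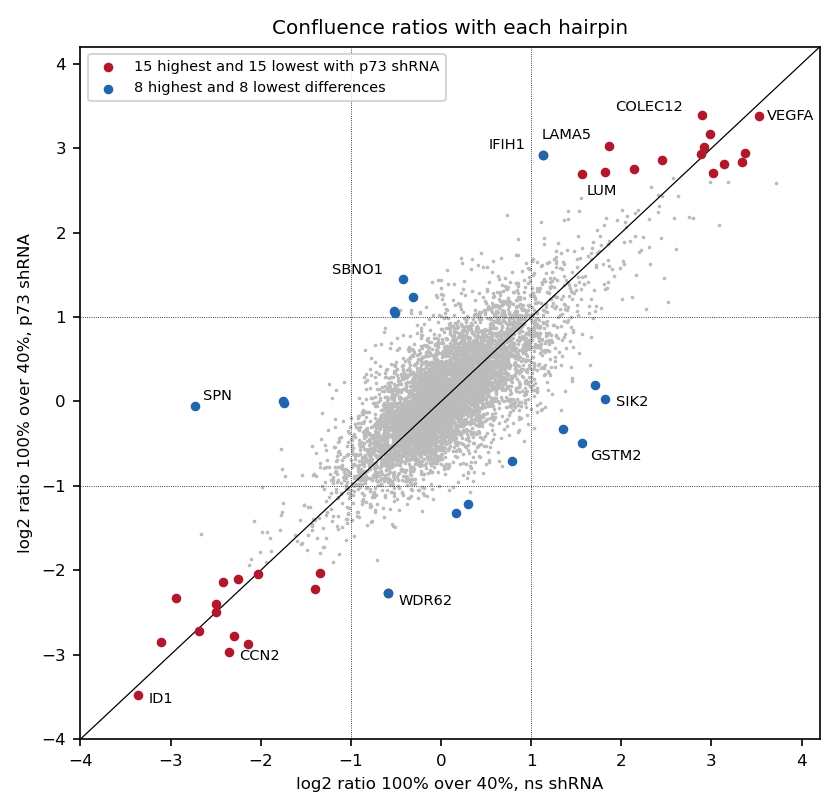
Log2 ratio of 100% over 40% confluence with ns shRNA (horizontal) and p73 shRNA (vertical), 1 point per gene above the brightness filter, with the diagonal of equal ratios and dotted lines at 2-fold. Red points are the 15 highest and 15 lowest genes with p73 shRNA and blue points the 8 highest and 8 lowest differences between the ratios; all 30 red genes have the same sign with both hairpins, some of them far from the diagonal, such as IFIH1 at 2.92 against 1.13 and WDR62 at -2.27 against -0.58, and no gene lies beyond 2-fold in opposite directions.

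Among genes induced by low oxygen, other than those of glycolysis, 13 of the 23 above the filter were at least 2-fold higher with p73 shRNA and 1 was lower, against a background of 6.35% and 2.62%. The list has 32 genes, of which 30 were measured. Its median ratio was 1.42, that of all genes 0.02. NDRG1, a stress-responsive growth regulator, had intensities of 448 and 3511, a ratio of 2.94. MXI1, an antagonist of MYC, had 165 and 1275. DDIT4, an inhibitor of mTORC1 signalling, had 346 and 2537, a ratio of 2.83. BNIP3, a mitophagy receptor of the outer mitochondrial membrane, had 1699 and 4746. The 1 member at least 2-fold lower was ADM, which encodes the vasodilator adrenomedullin, at 16244 and 7897, a ratio of -1.04. Of the 23 members, 5 had a negative ratio. After quantile normalization 0 of the 24 members above the filter were at least 2-fold lower, and the lowest ratio was -0.72. BNIP3 and ADM were named after their values were seen. With ns shRNA 15 members were higher and the median was 1.56. DDIT4 and NDRG1 had higher ratios with ns shRNA, 3.33 and 3.37.

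The enzymes of glycolysis, which low oxygen also induces in many cells, were at least 2-fold higher in 2 of 22 cases (9.09%), near the 6.35% of all genes, with a median of 0.16. These were the isoenzymes ALDOC, at 124 and 631, and ENO2, at 212 and 759.6. The kinases PFKFB3 and HK2 had ratios of 0.88 and 0.72. With ns shRNA the median was 0.19.

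A promoter window of 300 bases, 250 before and 50 after the start, was listed for 16 of the 23 hypoxia-inducible genes, in 25 windows. ACGTG or GCGTG occurred on either strand in 24 of the 25 (96.0%), against 62.2% of the windows of all genes above the filter and 48.4% of all windows in the table. ACGTG alone was in 64.0%, 26.2% and 21.4%. This core is also part of the E-box CACGTG, and it was found in 60.0% of the windows of the nucleolar list, whose genes were lower. In the 527 windows of genes at least 2-fold higher either core occurred in 55.8%, and in the 202 windows of genes at least 2-fold lower in 66.8%. A match describes the letters in the window and is not evidence of binding.

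Interferon-induced genes were higher in confluent cells with p73 shRNA: 44 of the 45 members above the filter had a positive ratio, against 3470 of all 6759 genes. Of the 45, 13 were at least 2-fold higher, against a background of 6.35%, and none was lower. The list has 52 genes, of which 49 were measured, and its median was 0.62. IFIH1 had the highest ratio, 2.92. IFITM1, a membrane protein that restricts virus entry, had intensities of 1651 and 6488, a ratio of 1.97. IFI16, a sensor of DNA, had 1238 and 4007, and its 3 probe sets gave 1.69, 1.79 and 1.64. OAS1, a synthetase that activates RNase L, had 156 and 518, a ratio of 1.66, while its other probe set, below the filter, gave 1.49. After quantile normalization 42 of the 45 members had a positive ratio and 3 a negative one.

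The same list had a median of 0.48 with ns shRNA, with 8 members at least 2-fold higher, and the difference of the ratios had a median of 0.09. The division of the list into antigen presentation and other members, and the members named from here to the end of the paragraph, were chosen after the values were seen and show nothing about effectors as a class. OAS2, a relative of OAS1, had intensities of 233 and 710.0 with p73 shRNA and 168 and 176 with ns shRNA. Its ratio was 1.56 against 0.07, and 0.33 against -0.37 for a second probe set. MX1, a GTPase that blocks virus replication, had 456 and 914 against 224 and 229. ISG15, a ubiquitin-like modifier, had 2300.3 and 4222 against 1946 and 2049. IFIT1, which binds viral RNA, had 1594 and 2750.5 against 1182 and 1017. In these 4 genes the array at 100% with p73 shRNA was the brightest of the 4, and the ns shRNA arrays had ratios between -0.22 and 0.07. Other effectors had the lower ratio with p73 shRNA: MX2, a relative of MX1, had 0.47 against 0.89, OASL, a relative of OAS1, 0.50 against 0.71, and IFITM1 1.97 against 2.15. HLA-B had 5476 and 8326 with p73 shRNA and 3892 and 7415 with ns shRNA, ratios of 0.60 and 0.93. Of the 9 members for antigen presentation, 7 had the lower ratio with p73 shRNA, with a median of 0.49 against 0.76. Of the other 36 members, 26 had the higher and 10 the lower ratio with p73 shRNA, with medians of 0.74 and 0.46. Over all genes 3411 of 6759 had the higher ratio with p73 shRNA. HLA probe sets can bind transcripts of several HLA genes, and a further HLA-E probe set gave 1.71 against 1.03, the reverse of the order in its brightest one (0.49 and 0.94). OAS1 was likewise ordered differently by its dim probe set, at 1.49 against 2.12. No test of the difference between the hairpins was possible.

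**Figure D3:**
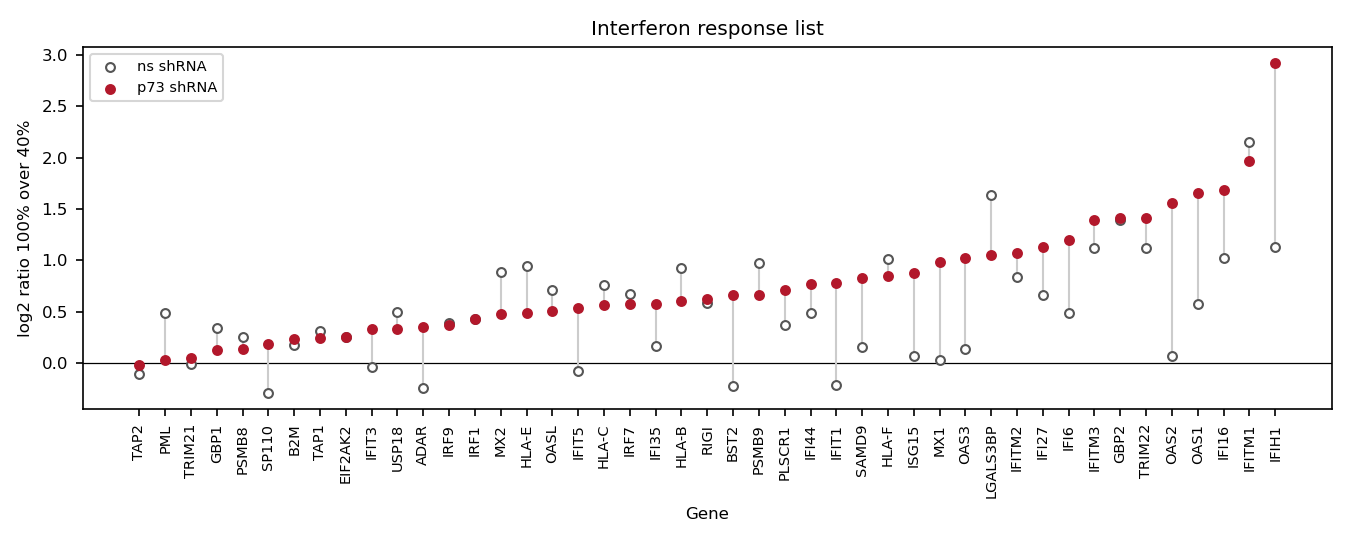
Log2 ratio of 100% over 40% confluence for the 45 interferon response genes above the brightness filter, ordered by the ratio with p73 shRNA (red), with the ratio with ns shRNA as open circles. The red points lie above 0 for 44 of the 45 genes, against 3470 of all 6759 genes. IFIH1 and OAS2 show 2 of the widest gaps, with 2.92 against 1.13 and 1.56 against 0.07.

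GAAANNGAA was searched in promoters after these ratios were known. It occurred in 63.8% of the 47 windows of the interferon genes, which cover 35 of the 45 members, against 6.72% of the windows of genes above the filter and 8.11% of all windows. Of the windows of genes at least 2-fold higher with p73 shRNA 9.3% held it, and of those at least 2-fold lower 5.94%.

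Inflammatory and NF-kB genes were at least 2-fold higher in 12 of 33 cases, against 6.35% of all genes, and none was lower. The median was 0.58. CCL2 and CCL7, chemokines for monocytes, had ratios of 2.72 and 2.75, against 1.81 and 2.14 with ns shRNA. PTGES, the prostaglandin E synthase, had intensities of 69.4 and 518, and CEBPD, a transcription factor of the acute phase response, 485 and 2682. CCL7, at 62.4 and 486, and PTGES were dimmer than the filter's intensity at 40% confluence, so their folds rest on a low starting value. IL1B, a cytokine named after its value was seen, had 816 and 3658. Of the complement genes 5 of 10 were at least 2-fold higher, against 6.35% of all genes, with a median of 0.99 that was 0.46 with the filter at the 70th percentile. They were C1RL, C1R at 411 and 2026, C3 at 974 and 3779, C1S at 362 and 1099, and the inhibitor SERPING1 at 88 and 214. SERPING1 had a ratio of 1.18 with p73 shRNA and 2.52 with ns shRNA, and C3 is a member of both lists. With ns shRNA the inflammatory list had 12 members higher, with a median of 0.67, and the complement list a median of 1.33.

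The extracellular matrix was described by 40 genes above the filter, of which 9 were at least 2-fold higher, against 6.35% of all genes, and none lower. The median was 0.41, and 0.64 with ns shRNA. LUM and DCN are small proteoglycans, and DCN had intensities of 601 and 3032, with all 4 probe sets between 2.05 and 2.31. COL3A1, a fibrillar collagen, had 3974 and 12524, a ratio of 1.65, and THBS2, an adhesive glycoprotein, 537 and 1871. The chains of the main collagen of fibroblasts did not share this: COL1A1 had 15424 and 14957 and COL1A2 15146 and 16586, ratios of -0.04 and 0.13. Both were named after their values were seen. LUM stood lower with p73 shRNA than with ns shRNA on both pairs of arrays, at 457 and 3020.0 against 1746 and 5199.

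Among matrix proteases and their inhibitors 4 of 19 genes (21.1%) were at least 2-fold lower, against 2.62% of all genes, and 1 (5.26%) was higher, near the background of 6.35%. ADAMTS1, a protease that cleaves proteoglycans, had intensities of 923 and 234, MMP3 (stromelysin) 3194 and 1055, and the membrane protease ADAM19 554 and 232. The fourth, ADAM12, had a ratio of -1.01 in its brightest probe set and 0.59 in its second. PLAT, the tissue plasminogen activator, had 384 and 1075. The list's medians, 0.16 with p73 shRNA and 0.29 with ns shRNA, had the opposite sign to the larger count, and the former was 0.27 without the filter.

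Among genes of BMP signalling and the ID proteins 8 of 17 had a positive and 9 a negative ratio, and 6 were at least 2-fold lower and 2 higher, against 2.62% and 6.35% of all genes. Beside the ID genes, the activin antagonist FST had intensities of 2555 and 914, a ratio of -1.47, followed by the BMP antagonist GREM1 and the decoy receptor BAMBI. The higher genes were TCF4, a helix-loop-helix factor, and the BMP antagonist CHRDL1, with ratios of 1.15 and 1.37. The list's median was -0.43, and -0.42 with ns shRNA, but -0.06 with averaged probe sets. TGF-beta genes had 3 of 14 at least 2-fold higher, against 6.35% of all genes, and none lower, with a median of 0.27: the co-receptor TGFBR3 at 273 and 979, and the latent binding proteins LTBP1 at 223 and 788 and LTBP3 at 115 and 306.

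Targets of YAP and TEAD, which are known to fall when cells become crowded, were at least 2-fold lower in 5 of 23 cases, against 2.62% of all genes, and none was higher. The median was -0.45, and -0.21 with ns shRNA, where 6 were lower. Beside CCN2 and EDN1 these were F3, the tissue factor, at 2192 and 688, GADD45B, a stress-induced signalling protein, at 721 and 264, and CCN1, a matricellular relative of CCN2, at 9513 and 3701. Among targets of the transcription factor SRF and actin genes 22 of 26 had a negative ratio, with a median of -0.39. Over all 6759 genes 3470 had a positive ratio. In this list 2 (7.69%) were at least 2-fold lower, against 2.62% of all genes. ZYX, the focal adhesion protein zyxin, had 2333 and 883, and TAGLN, an actin-binding protein, 6205 and 3026. ACTA2, the smooth muscle actin, was higher at 258 and 542, a ratio of 1.04.

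Nucleolar genes for making ribosomes were at least 2-fold lower in 9 of 26 cases, against 2.62% of all genes. The ratio was negative in 25 of the 26, while 3470 of all 6759 genes had a positive one. The median was -0.64, and -0.76 with ns shRNA. RRP12, which takes part in exporting ribosomal subunits, had intensities of 424 and 81.9, a ratio of -2.22. NOP16, a nucleolar protein, had 1899 and 552, and its second probe set above the filter gave -1.26. Transporters and enzymes of amino acid supply under the factor ATF4 were lower in 4 of 25 cases, against the same 2.62%, and higher in 1, with a median of -0.52. SLC3A2, SLC7A11 and SLC7A5, subunits of amino acid transporters, had 1604 and 515, 1530.4 and 492, and 2288 and 801. The fourth was PSAT1, an enzyme of serine synthesis, at 543 and 263. CTH, an enzyme of cysteine synthesis, was higher at 107 and 278. Among metallothioneins and targets of NRF2 the lower genes were 4 of 19, namely HMOX1, SLC7A11, TXNRD1 (thioredoxin reductase, 8488 and 2839) and GCLM (a subunit of the glutathione-synthesising ligase, 2739.5 and 1207), again against 2.62% of all genes. The list's median was -0.45, and -0.23 after quantile normalization.

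The proteins of the ribosome itself had a median of -0.41 with p73 shRNA and -0.20 with ns shRNA. With p73 shRNA 29 of 31 were negative, while 3470 of all 6759 genes were positive, and none of the 31 was 2-fold. This direction of the ribosomal proteins depended on the scaling. After quantile normalization, which gives all arrays the same distribution, the median was 0.01 with p73 shRNA. These are among the brightest genes, and the p73 shRNA array at 40% was the brightest at its top end: RPS12 had an intensity of 21232 there and 13307 to 14539.6 on the other arrays. More widely, the tenth of genes with the highest mean had a median ratio of -0.17, and of -0.01 after quantile normalization. The tenth with the lowest mean had 0.19 and 0.04. Small ratios of very bright or dim groups are therefore on the scale of this slope. Heat shock proteins and chaperonins (median -0.44, with HSPH1 the 1 of 19 at least 2-fold lower) had -0.27 after quantile normalization, and the proteasome (-0.37, none of 26 at 2-fold) had -0.27.

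Genes of cell division differed little as a group. Of 48 genes for the G1/S transition and DNA replication 1 (2.08%) was at least 2-fold lower and none higher, with a median of -0.04. For G2/M and mitosis 1 of 52 (1.92%) was lower and none higher, with a median of -0.16. The shares of lower genes were near the 2.62% of all genes, while 6.35% of all genes were higher. The single genes were CDC25A, a phosphatase that activates cyclin-dependent kinases, at 359 and 143, and CDCA8, a subunit of the chromosomal passenger complex, at 2699 and 1313. The second probe set of CDC25A, also above the filter, gave -0.54 where the brightest gave -1.26. Of 16 cyclins, pocket proteins and cyclin-dependent kinase inhibitors 5 were higher and 2 lower, against 6.35% and 2.62% of all genes, with a median of 0.67. CDKN1A, the kinase inhibitor p21, had 191 and 813, a ratio of 2.03, and GAS1, a growth arrest gene, 86.8 and 349.8; the others were CCNG2, the pocket protein gene RBL2 (1.19) and the antiproliferative BTG1 (1.13). CCND1, the cyclin of early G1, had 934 and 359.7, a ratio of -1.35, and CCND3, another D-type cyclin, had -1.07. Of the replacement histones 0 of 10 were at least 2-fold in either direction, against 6.35% higher and 2.62% lower of all genes.

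Targets of the p53 family, which p73 belongs to, were at least 2-fold higher in 6 of 25 cases and lower in 4, against 6.35% and 2.62% of all genes, with a median of 0.42, and 0.34 with ns shRNA. With the filter at the 70th percentile the median with p73 shRNA turned to -0.04. CDKN1A had a ratio of 2.03 with p73 shRNA and 1.73 with ns shRNA, and the potassium channel gene KCNK1 1.38 and 1.42. KCNK1 had intensities of 30.0 and 96.7 with p73 shRNA, both below the filter's intensity, and 149.9 and 421 with ns shRNA. The stress gene GADD45A, an inhibitor of growth after DNA damage, was lower at 3018 and 1039, as were IGFBP3 and AEN, with ratios of -1.23 and -1.02, and PLK2, which lay at the threshold. SESN1, a regulator of mTORC1 named after its value was seen, had 78.0 and 178 with p73 shRNA and 119 and 126 with ns shRNA.

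Lipid synthesis was represented by SCD, the stearoyl-CoA desaturase, at intensities of 596 and 3792, a ratio of 2.65, and its regulator SREBF1 at 154 and 408. These were 2 of 11 fatty acid genes (18.2%), against 6.35% of all genes. The median was 0.64, and 0.23 with ns shRNA, and with p73 shRNA it was 0.42 with the filter at the 70th percentile and 0.26 with averaged probe sets. In cholesterol synthesis 2 of 18 (11.1%) were higher, not far from the background: INSIG1, which restrains the sterol sensor, at 552 and 2541, and HMGCS1, the synthase that feeds the pathway, at 183 and 534. HMGCS1 had a ratio of 1.49 with p73 shRNA and 0.63 with ns shRNA, but its second probe set gave 0.77 and 0.67. FOXO-linked genes were higher in 5 of 16 cases and lower in 2, against 6.35% and 2.62% of all genes. The median was 0.59, and 0.33 with averaged probe sets, and 0.70 with ns shRNA. TXNIP, the thioredoxin-binding brake on glucose uptake, had 422 and 1980.0, and its 3 probe sets lay between 1.98 and 2.20. The other higher genes were PNRC1, TRIB2, BTG1 and SESN1, and the lower ones GADD45A and KLF6, with -1.53 and -1.20. Of 22 immediate early and ERK feedback genes 4 were higher, the transcription factors EGR1 (188 and 827), KLF4 (247 and 825) and ETV5 (303 and 715) and the ERK phosphatase DUSP6 (350.5 and 974), and 1 was lower, HBEGF, a ligand of the EGF receptor, at 305 and 81.4, against the same shares of all genes.

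Among growth factors and their receptors 4 of 20 were higher and 3 lower with p73 shRNA, against 6.35% and 2.62% of all genes, and 5 were higher and 6 lower with ns shRNA. The median was 0.43 with p73 shRNA, and 0.15 with averaged probe sets. PDGFRA, the alpha receptor for platelet-derived growth factor, had intensities of 645 and 2855 with p73 shRNA and 1387 and 3015 with ns shRNA, so the arrays at 100% were close and the one at 40% with p73 shRNA was the lowest. Its second probe set above the filter gave -0.17 where the brightest gave 2.13. IGFBP6, which binds insulin-like growth factor, had 643 and 2843. FGF5, a fibroblast growth factor, had 773 and 180.1, with all 3 probe sets between -1.48 and -2.03, and NRG1, a ligand of ERBB receptors, 765 and 215. The rest were the higher IGFBP5 and PDGFD (1.25 and 1.02) and the lower IGFBP3. In Wnt signalling 3 of 15 (20%) were higher, the ligand WNT5A, the antagonist SFRP1 and the co-receptor LRP6 (ratios 1.23, 1.22 and 1.15). In the same list 2 (13.3%) were lower, DKK1 and the ligand WNT5B at 3318 and 1284. The shares of all genes were 6.35% and 2.62%. Of 11 clock genes 3 (27.3%) were higher, against 6.35% of all genes: BHLHE40 and PER2, which are repressors of the clock, and NFIL3, with ratios of 2.19, 1.03 and 1.90. The Wnt and clock medians of 0.21 and 0.37 turned negative with the filter at the 70th percentile, at -0.25 and -0.12. Of 13 cadherin and adhesion genes 1 was lower (7.69%, against 2.62% of all genes), the protocadherin PCDH9. Of 9 integrins 1 was higher (11.1%, against 6.35%), ITGA4, at 241 and 638, a ratio of 1.37. Its other probe sets above the filter gave 0.83 and 0.19. Lysosome genes (1 of 32 lower, SQSTM1, an autophagy receptor, with a ratio of -1.02), oxidative phosphorylation (0 of 47 either way), folding proteins of the endoplasmic reticulum (0 of 21), splicing factors (1 of 37 higher, the kinase CLK1, 1.19) and Notch genes (0 of 6) had medians between -0.14 and 0.14, and counts near or under the background. The Notch median, 0.14 over 6 genes, depended on the setting. It was 0.36 without the filter, 0.43 with the filter at the 70th percentile and 0.35 with averaged probe sets, but 0.08 after quantile normalization.

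**Figure D4:**
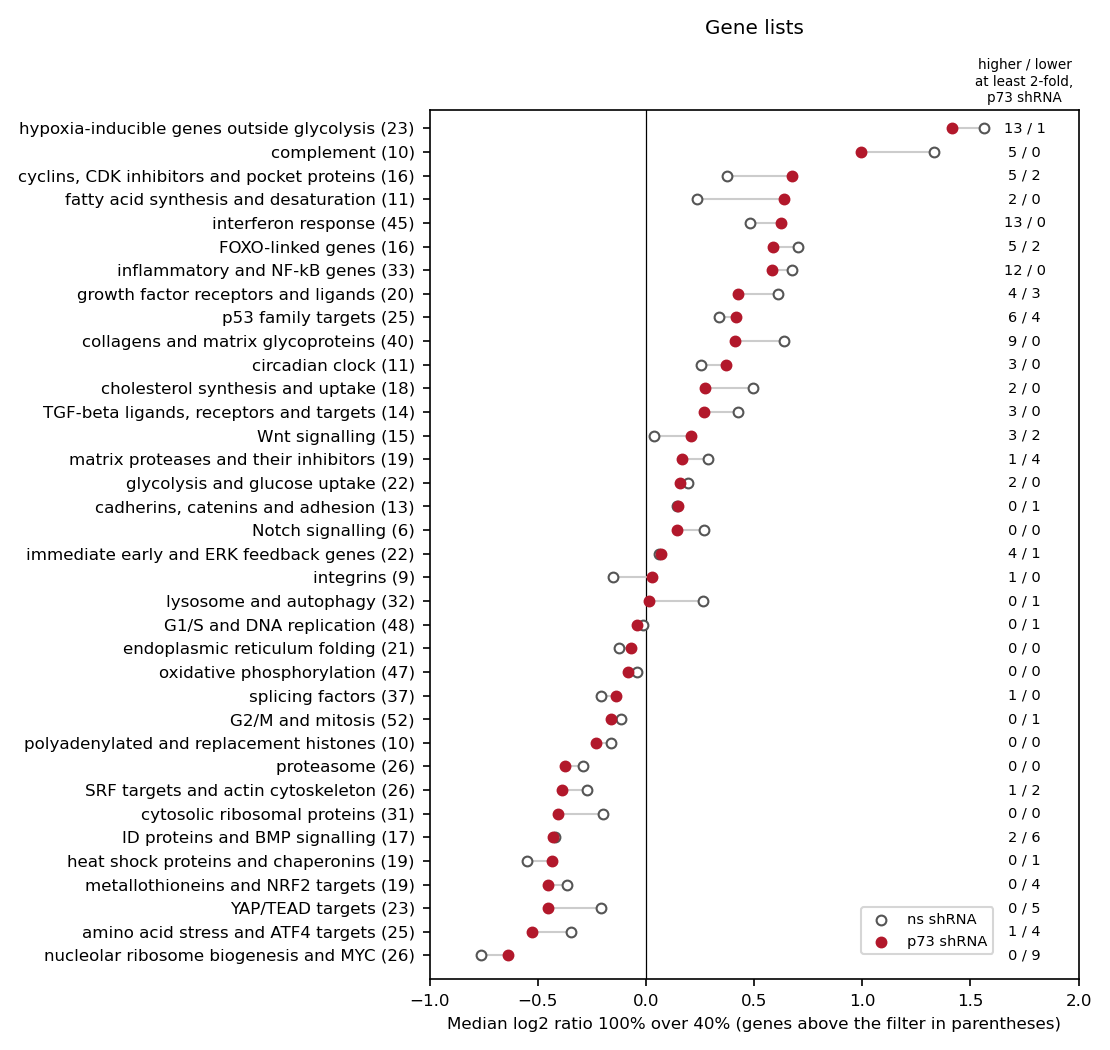
Median log2 ratio of 100% over 40% confluence for the 36 gene lists, with p73 shRNA in red and ns shRNA as open circles, the number of genes above the filter in parentheses, and at the right how many were at least 2-fold higher or lower with p73 shRNA. Hypoxia-inducible genes lie highest, at 1.42, and nucleolar ribosome biogenesis genes lowest, at -0.64; the ribosomal proteins, drawn at -0.41, stand at 0.01 after quantile normalization.

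Where the ratios differed between the hairpins was examined gene by gene. The ratio with p73 shRNA was at least 2-fold above that with ns shRNA for 91 genes (1.35%) and at least 2-fold below it for 76 (1.12%). The median absolute difference was 0.24. Large differences were more frequent among dim genes: 59 of the 676 genes in the tenth with the lowest mean differed at least 2-fold, against 1 of 676 in the tenth with the highest. SPN, a leukocyte surface sialoglycoprotein, had the widest positive difference, 2.68, with intensities of 186 and 179 with p73 shRNA and 205 and 21 with ns shRNA. The 3 dimmer probe sets of SPN gave negative differences. SBNO1, a nuclear helicase-like protein, had 79.0 and 237 against 204 and 149, a difference of 1.88. IFIH1 came next, at 1.79, from 46.8 and 429 against 127 and 292. SNX11, a sorting nexin, had 269 and 271 against 519 and 146. In the brightest probe sets of SPN, SNX11 and HABP4 (165 and 163 against 162 and 40.5) the arrays with p73 shRNA were level and the ns shRNA arrays were not. The second probe set of SNX11, also above the filter, had ratios of -0.64 with p73 shRNA and -0.24 with ns shRNA. Its difference therefore had the opposite sign.

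GSTM2, a glutathione transferase, had the widest negative difference, -2.05, with 522 and 368 with p73 shRNA and 175 and 539 with ns shRNA. Its probe set may also bind transcripts of closely related family members. SIK2, a salt-inducible kinase, had 142 and 145 against 58.9 and 238. WDR62, a spindle pole protein, had 250.4 and 42.9 against 206 and 133, a difference of -1.68. HSPG2, the basement membrane proteoglycan perlecan, had 354 and 409 against 169 and 577. In GSTM2, SIK2 and HSPG2 the lowest of the 4 arrays was ns shRNA at 40%, and in WDR62 it was p73 shRNA at 100%.

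Genes with a second probe set above the filter allow the same RNA to be read again, which was done after the values were seen. Of 172 such genes at least 2-fold in either direction with p73 shRNA, the second probe set had the same direction for 163 and was at least 2-fold the same way for 74. Of 29 such genes whose ratios differed at least 2-fold between the hairpins, the second probe set had the same sign for 13 and was at least 2-fold the same way for 0. Across 2231 genes the brightest and second probe sets correlated with Pearson r = 0.636 for the ratio with p73 shRNA and 0.0905 for the difference between hairpins. Probe sets of a gene share the arrays and the RNA, so this describes agreement between probes and not between cultures. OAS2 was among the 13 genes, and PDGFRA was not.

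**Figure D5:**
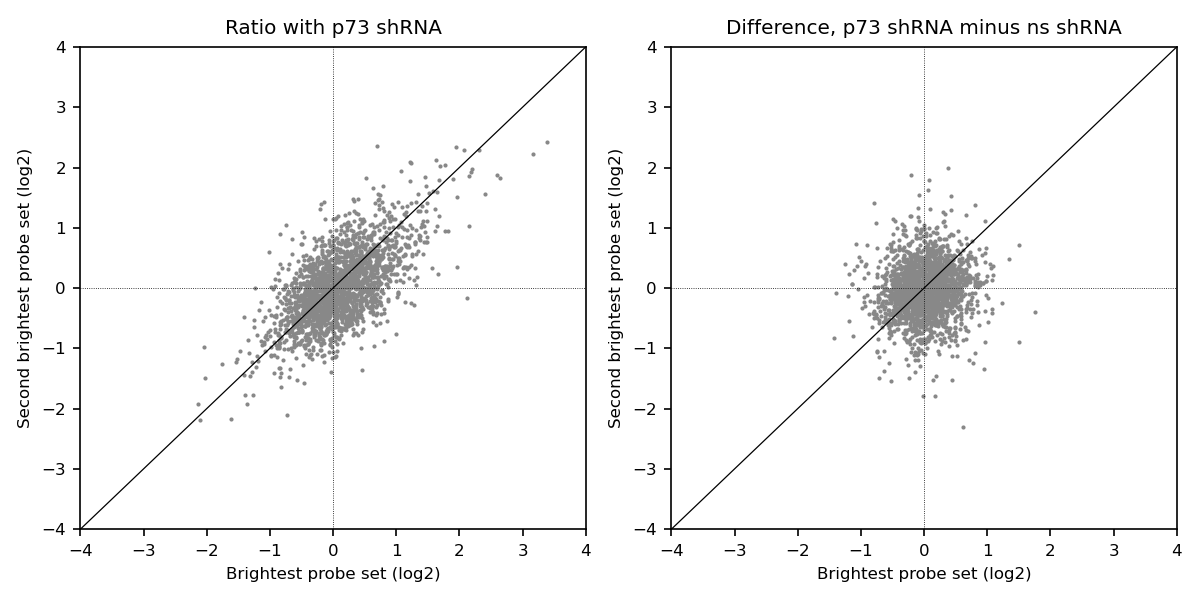
Values from the second brightest probe set (vertical) against those from the brightest (horizontal) for 2231 genes with 2 probe sets above the filter, with the diagonal of equal values. The ratio of 100% over 40% with p73 shRNA (left) had r = 0.636, and the difference of the ratios between hairpins (right) had r = 0.0905, where the points form a round cloud.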

How the data were processed

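Total RNA of 4 BJ-TE samples was extracted with trizol and hybridised to Affymetrix arrays, per the labels' protocols. The deposited table holds 1 intensity per probe set and array; the sources used here do not say how the authors summarised and scaled it. Judged by its values the scale is linear, with a trimmed mean (2% cut at each end) of 500.1 to 500.2 on every array, so a shift shared by most genes cannot be seen. Samples were grouped by title. The 62 control probe sets were left out. Of the rest, 19064 had 1 gene symbol, 1043 several and 2108 were not listed, and current symbols were found through the Entrez ID for 19052; only single-gene probe sets were named.

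Ratios are differences of log2(intensity + 11.5), the 20th percentile of all values, which understates ratios of dim genes. The filter was the median of all probe sets. With 1 array per group no p-value was computed; called means at least 2-fold. Depth has no counterpart here, and signal over background limits dim genes. Named are the 15 highest and 15 lowest ratios, the 8 highest and 8 lowest differences between hairpins, 4 members of each of 36 lists by absolute ratio, and TP73, KCNK1 and CDKN1A. Other members complete counts of 5 or fewer or are said to be named after their values were seen. The comparison, the lists and the rule were chosen with earlier results of these data known. Promoters came from the RefSeq table on GRCh38.p14, matched by symbol, with 35116 windows for 27305 symbols. Alternatives were quantile normalization, other pseudocounts, filters and folds, and averaged probe sets. The scripts, in Python 3.11.15 with numpy 2.4.6, pandas 2.3.3 and matplotlib 3.10.9, were tested on simulated data.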

Additional observations from a re-analysis of the deposited data

Results flagged for a closer look

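Of the 164 named genes with a ratio, 15 had a ratio of opposite sign with p73 shRNA and with ns shRNA, on 1 array per group, so the differences were not tested. Positive with p73 shRNA and negative with ns shRNA were SBNO1 (difference 1.88), SNX11 (1.76), the DNA repair gene XRCC2 (1.60), the phospholipase PLA2G12A (1.56), the sugar kinase SHPK (1.54), the kinetochore gene NDC80 (0.83) and the translocon-associated SSR1 (0.93). XRCC2 had ratios of 1.08 against -0.52, and NDC80 0.71 against -0.12. Negative with p73 shRNA and positive with ns shRNA were GSTM2 (-2.05), the calcium channel subunit CACNG4 (-1.67), THAP3 (-1.51), the zinc finger gene ZNF227 (-1.49), the S6 kinase RPS6KB2 (-1.49), the histone H2AZ1 (-0.31), the chaperone HYOU1 (-0.56) and the Notch target HEY1 (-1.09). HEY1 had ratios of -0.43 against 0.66, and a dimmer probe set below the filter gave -1.33 and 0.87, the same order. For SNX11 and H2AZ1 1 of the ratios lay close to 0, at 0.01 with p73 shRNA and 0.001 with ns shRNA. Their second probe sets, both above the filter, had the reverse order, with -0.64 and -0.24 for SNX11 and 0.17 and -0.51 for H2AZ1. The second probe set of SSR1 kept the order but not the opposite sign, at -0.15 and -0.23. Below the filter, the second probe sets of SBNO1 (1.03 and 2.05), CACNG4 (0.24 and -0.18) and THAP3 (0.28 and -0.75) also had the reverse order. Genes named for the widest differences are over-represented here by the rule that named them.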

How the results depend on the processing

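Of 252 list medians recomputed under other settings 219 moved by less than 0.1. Of 1148 values of single named genes 1078 moved by less than 0.29, and no single gene at 2-fold changed sign. Settings that change only the filter cannot move the ratio of a single gene, and all 164 genes stayed the same under each of them. Averaging the probe sets moved 46 of the 164. The pseudocount at the 40th percentile moved 18, quantile normalization 4 and the lower pseudocount 2. The 4 counts stood within 1.5 times of their values under quantile normalization (352 higher, 219 lower), the lower pseudocount, the filter on the p73 shRNA arrays and the mean of probe sets. Without the filter 1151 genes were at least 2-fold higher, 773 lower, 558 the same way with both hairpins (307 before) and 1872 differed between hairpins (167 before). With the filter at the 70th percentile these were 196, 102, 173 and 40. At 1.5-fold they were 1137, 730, 1057 and 914, and at 3-fold 114, 37, 87 and 10. With the pseudocount at the 40th percentile 88 genes differed between hairpins. Direction changed for 4 list medians. The ribosomal proteins had a median of 0.0113 after quantile normalization, and with the filter at the 70th percentile the p53 family targets had -0.042, Wnt signalling -0.247 and the circadian clock -0.1152. Fewer genes are tested under the stricter filter, and otherwise the cause was not tested. No paired analysis was possible because each group had 1 array. Leaving out a replicate could not be done for the same reason. Genes below the filter, TP73 among them, are not shown to be absent or level.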

Other observations

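Unnamed probe sets, which have no single gene in the array's annotation, showed similar shares: of 1156 above the filter 64 were at least 2-fold higher and 28 lower with p73 shRNA. Counted by probe set instead of by gene, 695 of 11108 (6.26%) were higher and 291 (2.62%) lower. Below the filter, where values are close to background, 1425 of 11107 probe sets were at least 2-fold higher and 1234 lower, so ratios of that size are common there in either direction.

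The promoters of the G2/M and mitosis genes held TTTGAA in 60.7% of 56 windows and CCAAT in 71.4%, against 10.7% and 35.8% of the windows of genes above the filter. These are motifs known from mitotic promoters, and the list's median ratio with p73 shRNA was -0.16. The promoters of endoplasmic reticulum folding genes held CCAAT in 92.3% of 26 windows, and their median ratio was -0.07.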
